A study of Mus musculus with 3 samples.

Results

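Antisense and opposite-strand genes are named after a neighbouring or overlapping protein-coding gene, with the ending os, as or ot and sometimes a number. They are described here by the regions of H2AK119ub, the ubiquitinated form of histone H2A, that the authors assigned to them. The 50 genes were every gene name of this form in the annotated region list of either replicate, out of 6653 gene names in the 2 lists, in any location class. One gene of this form is not reported here. A further 34 symbols that end in the same letters were left out, of which 33 are protein-coding and 1, Zfas1, has a prefix that is no coding gene's symbol. In the reference, 44 of the 50 are lncRNA genes, 4 are antisense RNA genes and 2, Brd3os and Ccpg1os, are annotated as protein-coding. The gene whose symbol precedes the ending is called the partner, and the 50 genes have 48 different partners. Where the symbol gives only a Hox cluster letter, the partner is the overlapping or nearest Hox gene of that cluster, Hoxa3 for Hoxaas2 and Hoxa6 for Hoxaas3. Nespas is paired with Gnas, with which it shares a locus.

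Lingual epithelium came from control mice at postnatal day 0, and no mutant or treated mice were used for the ChIP. The tongues were freed of the back part that carries the circumvallate papillae, and cells were sorted with an antibody to the epithelial surface protein EpCAM. The submitters describe the 2 H2AK119ub libraries as biological replicates, and the third library, an input, was not used here. With 1 group of 2 replicates no difference between conditions can be tested, so the values are counts, widths and shares, and exact 95% binomial intervals cover counting error only. Neighbouring genes also share regions and are not independent.

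H2AK119ub is deposited by Polycomb repressive complex 1 (PRC1), which together with PRC2 keeps developmental regulators repressed in tissues that do not use them. Variant PRC1 complexes are brought to CpG islands by KDM2B, which binds unmethylated CG dinucleotides, and many developmental transcription factor genes have several such islands. Long noncoding RNA genes often start close to a coding promoter and run away from it, or cross the coding gene on the other strand, so that one stretch of chromatin can hold the starts of both.

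The arrangement is shown by the start sites of 2 divergent pairs, 1 whose starts lay under regions in both replicates and 1 whose starts lay under none, although the CG counts were close. Lhx1os starts 126 bp from Lhx1, a LIM homeobox factor of head and kidney development. Map2k3os starts 187 bp from Map2k3, a kinase upstream of p38. Each window runs from 250 bases before the start to 50 after it, 5′ to 3′ on the gene's own strand, from RefSeq on GRCm38.p6, and capitals mark CG dinucleotides. The windows are chr11:84525410-84525709 on the plus strand for Lhx1os, chr11:84525485-84525784 on the minus strand for Lhx1, chr11:60931818-60932117 on the minus strand for Map2k3os and chr11:60931804-60932103 on the plus strand for Map2k3. The 2 windows of a pair overlap, so each holds much of the other's reverse complement.
Lhx1os: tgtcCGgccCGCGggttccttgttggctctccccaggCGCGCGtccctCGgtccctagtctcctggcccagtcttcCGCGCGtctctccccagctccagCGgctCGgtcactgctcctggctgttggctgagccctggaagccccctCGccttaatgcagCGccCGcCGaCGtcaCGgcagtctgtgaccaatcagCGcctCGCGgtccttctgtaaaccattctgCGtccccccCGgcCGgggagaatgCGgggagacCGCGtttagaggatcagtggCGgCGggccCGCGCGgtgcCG
Lhx1: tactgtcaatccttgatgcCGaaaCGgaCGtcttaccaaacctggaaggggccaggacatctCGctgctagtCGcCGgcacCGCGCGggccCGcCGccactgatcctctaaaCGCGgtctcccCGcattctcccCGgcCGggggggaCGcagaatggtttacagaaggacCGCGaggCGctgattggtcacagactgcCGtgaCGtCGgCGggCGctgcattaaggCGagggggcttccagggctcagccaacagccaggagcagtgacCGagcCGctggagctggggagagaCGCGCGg
Map2k3os: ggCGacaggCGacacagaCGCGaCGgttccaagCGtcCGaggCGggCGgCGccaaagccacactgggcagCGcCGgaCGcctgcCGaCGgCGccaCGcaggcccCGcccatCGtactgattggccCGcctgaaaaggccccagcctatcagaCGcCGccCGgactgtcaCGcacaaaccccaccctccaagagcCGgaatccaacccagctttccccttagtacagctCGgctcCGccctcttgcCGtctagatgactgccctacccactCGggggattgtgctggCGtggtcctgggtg
Map2k3: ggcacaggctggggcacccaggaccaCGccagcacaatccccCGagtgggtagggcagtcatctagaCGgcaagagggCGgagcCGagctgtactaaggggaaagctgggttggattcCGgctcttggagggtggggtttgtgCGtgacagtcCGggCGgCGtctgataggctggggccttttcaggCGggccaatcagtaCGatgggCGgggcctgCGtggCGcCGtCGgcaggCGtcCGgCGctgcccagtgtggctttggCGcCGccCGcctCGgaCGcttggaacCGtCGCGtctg
Lhx1os has 33 CG dinucleotides in 300 bases and Lhx1 has 31, counts reached by 8.27% and 10.3% of all promoter windows. Map2k3os has 30 and Map2k3 has 28, reached by 11.5% and 14.0%. The letters CGCG, which read the same on both strands, occur 9 times in the Lhx1os window and 6 times in the Lhx1 window, overlapping copies counted, against once in each window of the Map2k3os pair. The share of windows with CGCG differed little by region in the larger sets. It was 57.9% of 19 antisense windows under a region in both replicates and 50% of 12 under none. For partners it was 78.3% of 23 and 76.9% of 13, against 38.4% of all windows. The letters GCGC occurred in 78.9% of the 19 antisense windows and 58.3% of the 12. For partners the GCGC shares were 78.3% and 76.9%, against 47.2% of all windows. These sets are small, and the differences were not tested.

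Most of the 50 genes were named in both replicates. Replicate 1 named 45 and replicate 2 named 47, and 42 of 50 were named in both (84%, interval 70.9 to 92.8), against 57.5% of all gene names. A promoter-class region named 32 of 50 in both (64%, interval 49.2 to 77.1), against 33.9% of all gene names. In 40 of the 42 the regions that named the gene overlapped between the replicates, the exceptions being Map2k3os and Srrm4os. The genes named in replicate 1 alone were Cdrt4os1, Rbm46os and Tbx3os2, and those named in replicate 2 alone were Brd3os, Ccpg1os, Chrna1os, Gad1os and Nespas.

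Regions that named one of these genes numbered 51 of 7838 in replicate 1 and 57 of 8093 in replicate 2. Their median width was 8791 bp in the first list and 8259 bp in the second (8525 ± 376 bp, SD, n = 2), against medians of 4974 and 4340.5 bp over all regions that name a gene. Promoter-class regions made up 64.7% and 61.4% of them, against 40.9% and 38.6% of all gene-naming regions. Within the promoter class the medians were 26181 and 22397 bp, against 8080 and 6843 bp for all promoter regions. The 10 and 9 gene-body regions had medians of 3493.5 and 7074 bp, and the 8 and 13 distal regions had medians of 2539.5 and 3122 bp. A region of the other replicate overlapped 84.3% of them in replicate 1 and 86% in replicate 2, against 62% of all gene-naming regions in each list. Overlap counts from 1 bp, which a wide region meets more readily, and the part of width in this difference was not tested. At 50% of both regions the shares were 66.7% and 61.4%, with no share over all regions to set beside them. Another gene was named as well by 51.0% and 52.6%, against 7.55% and 6.95% of all gene-naming regions. The rule takes genes that lie at or near a coding gene, and a region with several names is more likely to hold one. This share and the widths are therefore not independent of the choice.

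The reference lists 239 genes that follow the same naming rule, which gives the share without the condition that a gene be named in a list. In both replicates 45 of the 239 were named (18.8%, interval 14.1 to 24.4), 3 of them under another name in the lists (Fzd10os, Gata6os and Stk35os1). The share was 3.05% over all lncRNA and antisense RNA genes, 15.3% over all protein-coding genes and 7.7% over all genes of the reference. A gene can be named only if the authors' annotation held it, which could not be checked. By starts under a region in both replicates the shares were close, 4.97% for lncRNA and antisense RNA genes and 5.57% for protein-coding genes. The share of the 239 named in both replicates differed between the classes of partner. Of the 24 antisense genes with a homeobox partner 19 were named in both replicates (79.2%, interval 57.8 to 92.9), and of the 12 with a T-box, Gata, Sox or Fox partner 5 were (41.7%, interval 15.2 to 72.3). With a partner outside the transcription factor classes it was 20 of 190 (10.5%, interval 6.55 to 15.8), and the intervals of that group and the homeobox group did not overlap. Several of the 19 homeobox genes share a region, such as Hoxa11os, Hoxaas2 and Hoxaas3. They are not independent, so the homeobox interval is too narrow. The remaining classes are small, with 0 of 2 antisense genes of bHLH factors and 1 of 11, Wt1os, of other transcription factors.

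**Figure D1:**
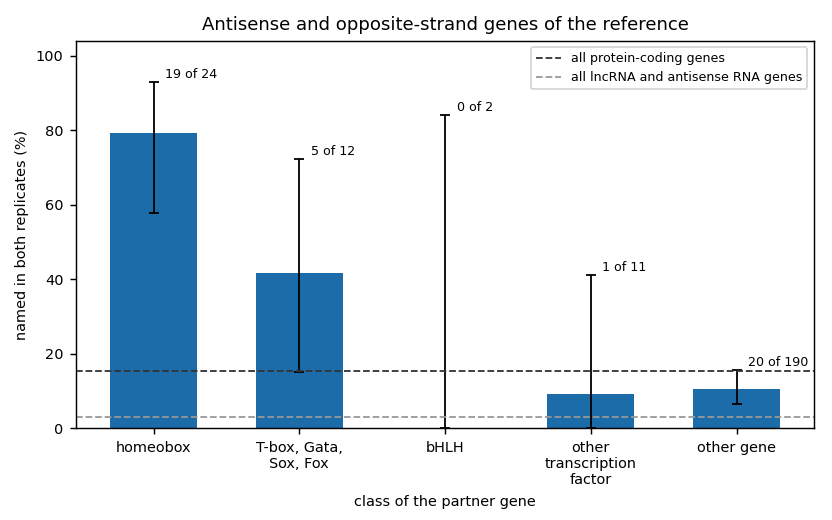
Percent of the antisense and opposite-strand genes of the reference that regions named in both replicates, by class of the partner coding gene. Bars give the percent, lines the exact 95% binomial interval, and dashed lines the percent over all protein-coding genes (15.3%) and over all lncRNA and antisense RNA genes (3.05%). The homeobox class, at 79.2%, stands above all other classes. All shares are by name, so they depend on which genes the authors' annotation held.

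Partner classes were set by gene symbol. The symbols miss some transcription factor genes, which are counted among the other partners, such as Hnf4a, a nuclear receptor of liver and gut epithelium, and Bach2, Dmrta2, Hopx, Jun and Mecom. With these 6 partners moved to the transcription factors, 26 of 55 antisense genes of the reference with a transcription factor partner were named in both replicates (47.3%), against 25 of 49 (51.0%) without them, and 19 of 184 with another partner (10.3%). Of the 50 genes named in the lists, 25 had a transcription factor partner (50%), against 20.5% of the 239 antisense genes of the reference. A homeobox or T-box, Gata, Sox or Fox partner accounted for 24 (48%), against 15.1% of the 239. Of all protein-coding genes 4.04% and 1.26% belong to these classes, so antisense genes of the reference as a whole more often had such a partner. With a transcription factor partner 24 of 25 were named in both replicates and 23 of 25 by a promoter region in both, and with another partner 18 of 25 and 9 of 25 were. The widest region naming the gene had a median of 38.5 kb in replicate 1 and 30.0 kb in replicate 2 with a transcription factor partner (n = 25 and 24), against 4.42 and 6.59 kb with another partner (n = 20 and 23). These n count genes, and a region that names several of them, such as the Hoxa region, enters once for each.

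**Figure D2:**
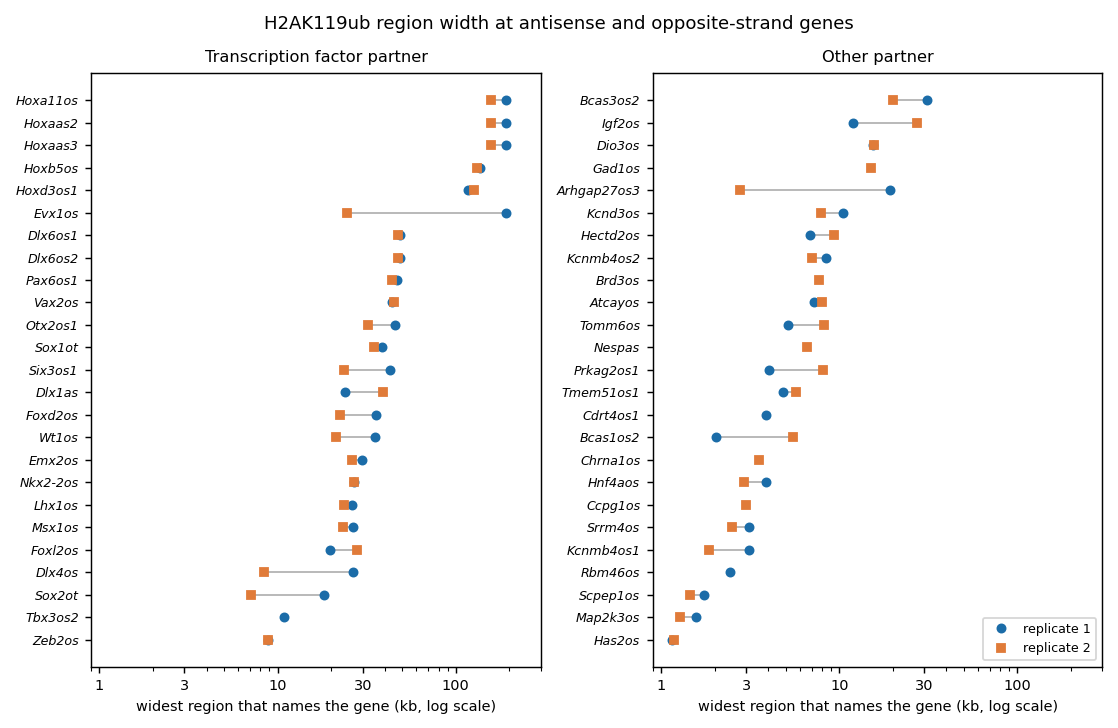
Width of the widest region that names each antisense or opposite-strand gene, in kb on a log scale, with genes of transcription factor partners on the left and of other partners on the right. Circles are replicate 1, squares replicate 2, and a line joins the replicates where both name the gene. The Hox cluster genes lie above 100 kb, and most genes with another partner lie below 10 kb.

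The Hox clusters, which pattern the body axis, held the widest regions. Hoxa11os (chr6:52245243-52249769, antisense to Hoxa11), Hoxaas2 and Hoxaas3 were named by 1 region of 192 kb in replicate 1 and 157 kb in replicate 2. That region named 22 genes in replicate 1 and 20 in replicate 2, so the 3 antisense genes made up a small part of it: the span of Hoxa11os took up 2.36% and 2.88% of it. Evx1os, beside the homeobox gene Evx1 at the cluster's edge, was under the same 192 kb in replicate 1. Replicate 2 had a separate region there, 24.4 kb wide, that named 2 genes. The Hoxa region thus ended before Evx1os in replicate 2 and after it in replicate 1. Hoxb5os was named by a region of 136 kb in replicate 1 and 131 kb in replicate 2. Hoxd3os1 was named by regions of 117 and 127 kb. Regions covered 100% of the spans of Hoxa11os, Hoxaas2, Hoxaas3, Hoxb5os, Hoxd3os1 and Evx1os in both replicates, as they did their partners.

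The other homeobox partners are mostly genes of brain, eye, limb and craniofacial development. All 19 antisense genes with a homeobox partner, the Hox ones included, were named in both replicates by a promoter region that also named the partner, and their widest regions spanned 8.79 to 192 kb in replicate 1 and 8.43 to 157 kb in replicate 2. Dlx6os1 (chr6:6820543-6871627), a noncoding gene known in mouse forebrain for crossing an enhancer between Dlx5 and Dlx6, lay with the shorter Dlx6os2 under 1 region of 48.5 kb in replicate 1 and 47.4 kb in replicate 2. Dlx1as, antisense to the interneuron factor Dlx1, had 23.8 kb in replicate 1 and 39.1 kb in replicate 2. Dlx4os had 26.6 kb in replicate 1 and 8.43 kb in replicate 2. Among these 4 Dlx genes, Dlx6os1 and Dlx6os2 differed little between the replicates, and Dlx4os differed most. In replicate 2 regions covered 0% of the Dlx4os span and 75.1% of Dlx4, against 96.5% and 100% in replicate 1.

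Eye and forebrain partners gave regions of similar width in both replicates in most cases. Vax2os, antisense to the eye patterning gene Vax2, had 43.9 and 45.3 kb in replicates 1 and 2. Pax6os1 (chr2:105536080-105670330), at the eye and forebrain gene Pax6, had 46.7 and 43.9 kb. Nkx2-2os, at the neural tube factor Nkx2-2, had 27.0 and 26.9 kb. In contrast Six3os1, at the forebrain and eye gene Six3, had a single region of 42.6 kb in replicate 1, against 1 of 23.7 kb and another of 11.7 kb in replicate 2. Otx2os1, at the forebrain gene Otx2, was named by 3 regions in each replicate, the widest of 45.6 and 32.1 kb. Emx2os, at the cortical and urogenital gene Emx2, had 29.6 and 26.2 kb. At Pax6os1, Nkx2-2os and Otx2os1 the widest region lay over the end next to the partner, and most of the long antisense gene was uncovered. Regions covered 15.0% and 14.7% of the 134251 bp span of Pax6os1, against 94.5% and 86.7% of Pax6. Nkx2-2os, with a span of 147599 bp, was covered to 13.3% and 11.6%, against 98.8% and 100% of Nkx2-2. Otx2os1, which also had 2 gene-body regions further inside in each replicate, was covered to 19.4% and 24.6%, against 100% of Otx2 in both replicates.

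Msx1os, antisense to Msx1, a homeobox gene of tooth and palate development, had regions of 26.5 kb in replicate 1 and 23.3 kb in replicate 2. Lhx1os, whose start is printed above, had 26.2 and 23.7 kb, and its region also named Lhx1 in both replicates. Zeb2os, at Zeb2, a repressor known for its part in epithelial to mesenchymal transition, had the narrowest widest region of the homeobox group in replicate 1, 8.79 kb, with 8.80 kb in replicate 2. Replicate 1 had a further promoter region of 6.67 kb that named both genes. Regions covered the whole of Zeb2os in both replicates, against 9.95% of the much longer Zeb2 in replicate 1, the further region included, and 4.98% in replicate 2.

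A T-box, Sox or Fox partner was found for 5 genes. Sox1ot, on the same strand as the neural factor Sox1, was named by 3 regions in each replicate, the widest of 38.5 and 35 kb and shared with Sox1. Foxd2os had 35.7 kb in replicate 1 and 22.4 kb in replicate 2, and Foxl2os, next to the ovarian factor Foxl2, had 19.7 and 27.9 kb. These 3 shared a promoter region with the partner in both replicates, and the remaining 2 did not. Sox2ot (chr3:34560381-34677993), a long gene that holds Sox2, a factor of stem cells and taste progenitors, was named only by gene-body regions, the widest of 18.2 kb in replicate 1 and 7.07 kb in replicate 2. Sox2 was named by a separate promoter region of 6.42 kb in replicate 1 and 2.93 kb in replicate 2, which named Sox2 alone although it lies inside the span of Sox2ot. Regions covered 27.8% and 23.1% of Sox2ot, against 78.0% and 52.5% of Sox2. Tbx3os2, beside the T-box gene Tbx3 of limb and mammary development, was named in replicate 1 alone, by 3 regions of which the widest was 10.9 kb. In replicate 2 a region of 2.81 kb that overlapped it was named for Tbx3 and not for Tbx3os2, and no region touched the Tbx3os2 span. Wt1os, beside the kidney and gonad factor Wt1, had regions of 35.1 and 21.2 kb that also named Wt1.

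**Figure D3:**
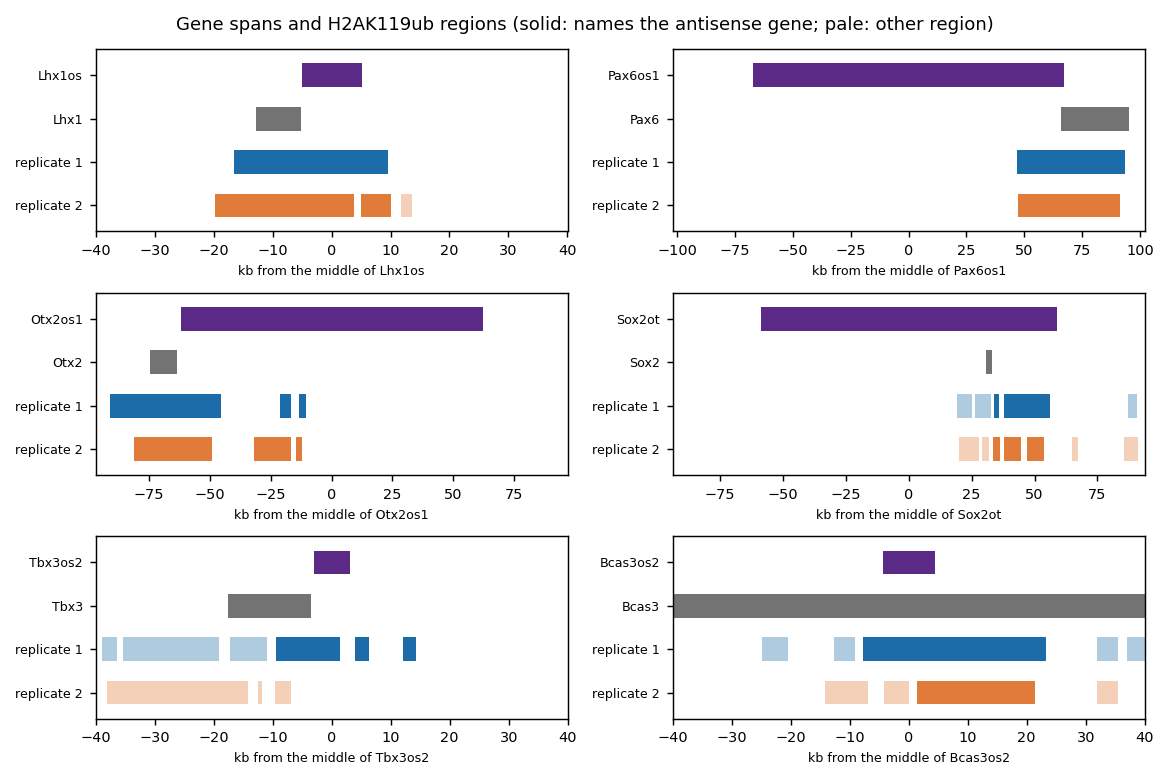
Position of 6 antisense or opposite-strand genes (purple), their partners (grey) and the regions of replicate 1 (blue) and replicate 2 (orange), in kb from the middle of the antisense gene. Solid regions name the antisense gene and pale ones do not, and Bcas3 runs past both edges of its panel. Regions lie over both genes at Lhx1os, over the end of Pax6os1 next to the partner, over that end and further inside at Otx2os1, and in replicate 2 on no part of the Tbx3os2 span.

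Partners outside these classes include channels, enzymes and growth factors. Of these 25 antisense genes, 5 were named with their partner by 1 region in both replicates: Dio3os, Igf2os, Kcnd3os, Kcnmb4os2 and Tomm6os. Dio3os (chr12:110275384-110278068), beside the imprinted gene of a deiodinase that inactivates thyroid hormone, had 15.5 kb in replicate 1 and 15.8 kb in replicate 2, and all of both genes was covered. Igf2os, across the imprinted growth factor gene Igf2, had 12 and 27.4 kb, and its span was covered to 81.2% and 100%, against 92.2% and 100% of Igf2. Kcnd3os, at the start of a voltage-gated potassium channel gene, had 10.5 and 7.86 kb. Its whole span was covered, against 2.03% and 1.57% of the long gene Kcnd3. Kcnmb4os2, at the start of a subunit gene of calcium-activated potassium channels, had 8.46 and 7.05 kb, with 100% of its span covered, against 9.63% and 7.85% of Kcnmb4.

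Some antisense genes with a larger partner were named alone by a region in at least 1 replicate. Bcas3os2 had the widest region of the genes with another partner in replicate 1, 31.0 kb in replicate 1 and 19.9 kb in replicate 2, and the region named no second gene. It covered the start of Bcas3os2 (chr11:85766833-85775680), a start that lies 422516 bp from the start of Bcas3, and regions covered 100% and 82.4% of Bcas3os2, against 12.8% and 8.83% of Bcas3. Of the region that named Bcas3os2, 28.6% in replicate 1 and 14.8% in replicate 2 lay on its span. In replicate 2 the larger part of the cover of Bcas3os2 came from a separate region of 4.35 kb named for Bcas3. Prkag2os1, inside the gene of an AMPK subunit, had 4.04 kb in replicate 1, where it was named alone, and 8.07 kb in replicate 2, where Prkag2 was named too. Regions covered 56.4% and 100% of Prkag2os1, against 14.3% and 10.5% of Prkag2. The 2 genes are the pairs in which the antisense start and not the partner start lay under a region in both replicates. Arhgap27os3 had the widest distal region of replicate 1 among these genes, with 19.3 kb there and 2.79 kb in replicate 2. Those regions lay 10.1 and 22.2 kb from its span, of which none was covered, and 0 and 8.89 kb from Arhgap27.

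Several of the names given to distal regions belong to a gene some way off. Of 21 distal assignments to the 50 genes in the 2 lists, 19 lay off the gene's span in the reference. Over all classes this held for 11 of 55 assignments of the first list, up to 34.3 kb away, and for 14 of 60 of the second, up to 39.9 kb away. Map2k3os shows the extreme: its region of 1.57 kb in replicate 1 lay 32.1 kb away and that of 1.27 kb in replicate 2 lay 39.9 kb away, and they did not overlap. Has2os, antisense to the hyaluronan synthase gene Has2, was named by distal regions of 1.15 and 1.18 kb, 33.1 kb from its span in both replicates. A region of this kind names the gene but says nothing of the chromatin of the gene itself.

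The replicates differed on 8 genes, 5 of which were named in replicate 2 alone. The widest region of these was at Gad1os, at the gene of the GABA-synthesising enzyme GAD67, with 15.1 kb in replicate 2, where it also named Gad1. The nearest region in replicate 1 was 76.8 kb away, and Gad1 was not named in replicate 1. Brd3os, near the bromodomain gene Brd3, had 7.66 kb in replicate 2, and the nearest region in replicate 1 was 5.68 kb away. Nespas, the antisense transcript of the imprinted Gnas locus, was named by a region of 6.59 kb in replicate 2. In replicate 1 a region of 9.50 kb named for Gnas alone covered 39.9% of the Nespas span, so the locus carried the mark in both replicates. Chrna1os, by the muscle acetylcholine receptor gene Chrna1, had 3.53 kb and Ccpg1os 3.0 kb in replicate 2. In replicate 1 a region of 2.18 kb named for Ccpg1 overlapped the Ccpg1os one. Replicate 1 alone had Cdrt4os1 with 3.89 kb and Rbm46os, by the germ-cell gene Rbm46, with 2.44 kb. For Ccpg1os and Tbx3os2 the other replicate thus had an overlapping region under the partner's name. The region that named Nespas lay 7.13 kb from the nearest one of replicate 1, and those of the other 5 genes overlapped none.

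Each antisense gene had to be named in a list to enter, and its partner did not. How often the antisense genes and the partners were named is therefore not compared here. The partner was named in both replicates for 37 of the 50 (74%, interval 59.7 to 85.4), in 1 replicate for 8 and in neither for 5. Counted once each, 35 of 48 partners were named in both (72.9%, interval 58.2 to 84.7), against 15.3% of all protein-coding genes, and 34 of 48 (70.8%) by a promoter region in both, against 8.82%. Since the antisense gene was chosen for being named and lies at or over its partner, that share is not independent of the choice. One region named both genes in both replicates for 28 of the 50 (56%, interval 41.3 to 70.0), in 1 replicate for 6 and in neither for 16. It did so in 28 of the 34 pairs in which both genes were named in both replicates. Where it was a transcription factor, the partner was named in both replicates in 25 of 25 pairs and shared a region in both in 23 of 25, against 12 of 25 and 5 of 25 for another partner.

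The 5 genes whose partner was named in neither replicate were Has2os, Hnf4aos, Map2k3os, Rbm46os and Scpep1os. Hnf4aos had gene-body regions of 3.88 kb in replicate 1 and 2.92 kb in replicate 2, which lay on the spans of both genes and were named for Hnf4aos alone. Scpep1os, named after a serine carboxypeptidase gene, had promoter regions of 1.75 and 1.46 kb that lay within its span and 16.0 and 16.3 kb from Scpep1. Apart from the 3.88 kb of Hnf4aos in replicate 1, each region of these 5 genes was under 3 kb wide.

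A gene can also be compared by how much of its span lay under regions, whatever they were named for. The median over the 50 genes was 53.5% in replicate 1 and 60.4% in replicate 2 (57.0 ± 4.84%, SD, n = 2), and over their partners 58.1% and 40.6% (49.4 ± 12.4%). The 2 medians differed by less than the spread of the partner median between replicates. Full cover was found for 19 and 18 antisense genes and for 19 and 19 partners, and no cover for 10 and 12 antisense genes and for 11 and 8 partners. In both replicates 12 antisense genes were covered more than their partner and 14 partners more than their antisense gene, while by replicate the antisense gene was covered more in 15 and 13 pairs and the partner in 15 and 20. Genes with a transcription factor partner had median covers of 100% and 93.6%, and their partners 100% and 100%. With another partner the medians were 8.09% and 5.53% for the antisense genes and 2.03% and 5.11% for the partners. Spans differ in length, with medians of 10802 bp for the antisense genes and 26708.5 bp for the partners, and spans of 37 pairs overlap.

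**Figure D4:**
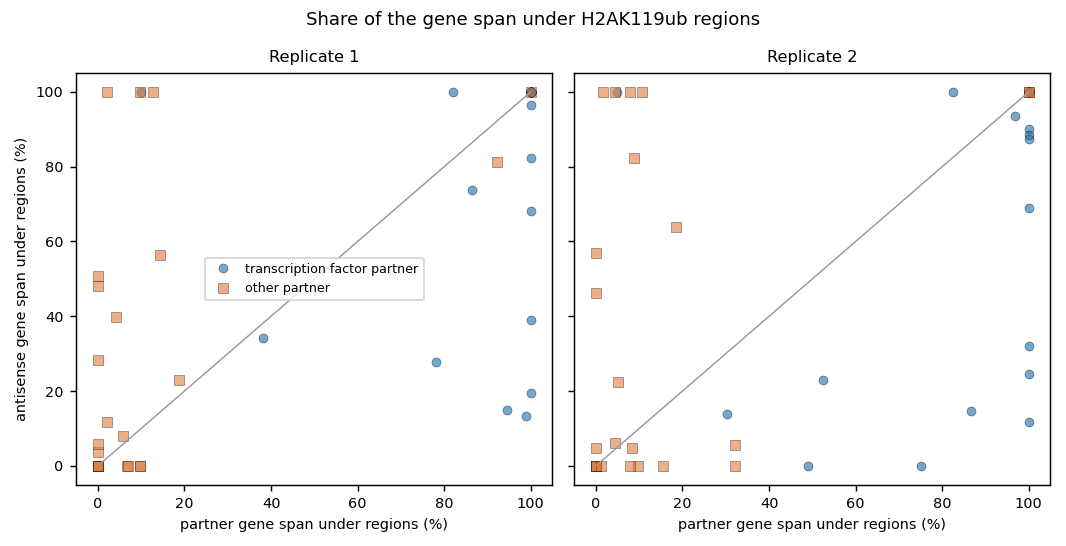
Percent of the antisense gene's span under regions against that of its partner, for the 50 pairs in each replicate. Circles are pairs with a transcription factor partner, squares pairs with another partner, and the line marks equal cover. Most circles lie at full cover of the partner, and squares lie mainly where little of the partner is covered.

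The regions that named both genes of the 28 pairs also ran beyond both spans. They were 24 distinct regions in replicate 1 and 25 in replicate 2, and one that served several pairs, such as the Hoxa region, enters once for each. Over the 28 pairs the median share of the region was 33.9% on the antisense gene and 22.7% on the partner in replicate 1, and 26.1% and 26.7% in replicate 2. The median share on neither span was 41.8% in replicate 1 and 48.2% in replicate 2.

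Starts and strands were given by the promoter table for 35 of the 50 genes and for the partners of 39. The genes were chosen because regions named them, 41 of the 50 by a promoter region, so a high share of starts under regions follows in part from the choice. A region lay over the antisense start in both replicates for 19 of 35, in 1 replicate for 4 and in neither for 12, against 4.97% of all lncRNA and antisense RNA starts and 5.31% of all starts in both. Partner starts lay under a region in both replicates for 24 of 39, against 5.57% of all protein-coding starts. Both strands were known for 26 pairs. In 15 of them the starts faced each other, and in 14 of these the spans overlap. In 10 they pointed apart and in 1, Sox1ot, the strand was the same. The median distance between starts was 1434 bp in facing pairs (6 to 422516 bp) and 729.5 bp in divergent pairs (51 to 27994 bp). One region named both genes in both replicates for 8 of 15 facing and 4 of 10 divergent pairs. Over the 26 pairs, both starts lay under regions in both replicates in 12, the antisense start alone in 2, the partner start alone in 0, and neither start in 12. Taken by replicate, a region lay over both starts in 12 pairs of replicate 1 and 13 of replicate 2, over the antisense start alone in 2 and 3, over the partner start alone in 0 and 1 (Chrna1os), and over neither in 12 and 9. In 9 pairs no start lay under a region in either replicate.

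CG content was counted in the same windows. The median was 17 CG dinucleotides in the 19 antisense windows under a region in both replicates, 14 in the 4 under a region in 1 and 10.5 in the 12 under none, against 7 over all 27025 windows. The ranges overlapped widely, from 5 to 53 for antisense starts under a region in both replicates and from 0 to 33 for those under none. For distinct partners the medians were 25 (n = 23), 14 (n = 2) and 19 (n = 13). Dio3os had the most, with 53, followed by Hoxa11os with 41 and Lhx1os with 33, and these starts lay under a region in both replicates. Ccpg1os, also with 33, and Map2k3os and Tmem51os1 with 30 each had no region over the start in either. At the low end Hectd2os had 0, Scpep1os 1, Cdrt4os1 3 and Hnf4aos 4, with no region over the start in either replicate. Next came Dlx6os1, Hoxd3os1 and Prkag2os1 with 5 each, which lay under regions in both replicates. All but Prkag2os1 of these lay inside wide regions with several genes.

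**Figure D5:**
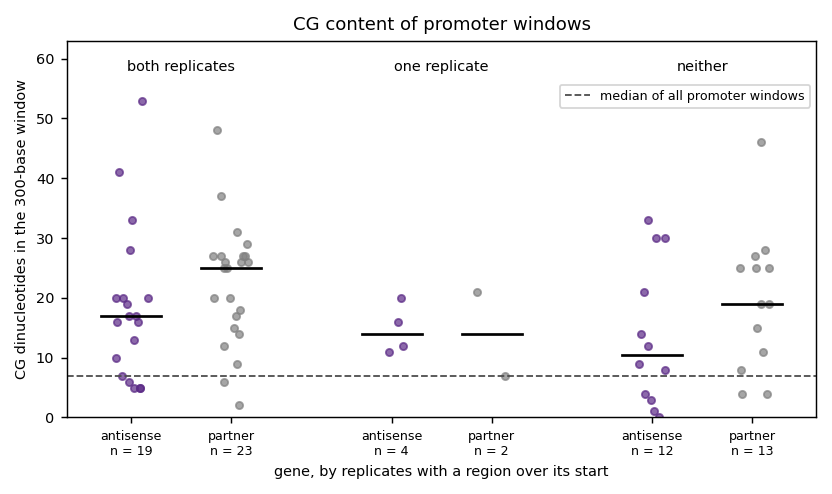
CG dinucleotides in the 300-base window around the start of antisense genes (purple) and their partners (grey), by whether a region lay over that start in both replicates, 1 replicate or neither. Points are genes, bars medians, and the dashed line the median of all windows (7). The antisense medians are 17, 14 and 10.5, with wide overlap between the groups.

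Many antisense genes lay under a region and were not named for it. A region overlapped the span of 54 of the 239 antisense genes of the reference in both replicates (22.6%, interval 17.5 to 28.4), against 8.84% of all genes, and 16 of these were named in neither list. For 13 of the 16 the partner was named in both replicates. Regions covered 100% of Hoxb3os in the Hoxb cluster, of Prdm16os and of Dmrta2os in both replicates. Hand2os1, divergent noncoding neighbour of the heart and limb factor Hand2, was covered to 93.6% and 93.3%. Tbx3os1 was covered to 51.2% and 56.3%, and Irx3os, at the Iroquois gene Irx3, to 17.1% and 13.7%. The named genes and the antisense genes under a region are therefore not the same list. Of the 50 named genes, 7 had no region on their span in either replicate.

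Having an antisense gene went with a somewhat higher share among the coding genes as well, within overlapping intervals. Of 33 homeobox, T-box, Gata, Sox and Fox genes with an antisense gene in the reference, 29 were named in both replicates (87.9%, interval 71.8 to 96.6). Of 239 such genes without one, 182 were (76.2%, interval 70.2 to 81.4).

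The lists cannot show expression, so the sorted tissue could be checked only by which marker genes carried the mark. Regions named in both replicates 1 of 7 epithelial markers, 3 of 5 mesenchymal, 0 of 2 endothelial, 0 of 1 immune, 1 of 2 muscle and 1 of 2 neuronal markers. The part that other cells in the sort could have in the regions of the antisense genes was not tested. As the lists hold no heights, fewer cells with the mark and less of it per cell cannot be told apart.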

How the data were processed

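ChIP-seq for H2AK119ub was carried out on 2 replicates of sorted lingual epithelium, with an input left unused here. The authors deposited 1 annotated list of regions per replicate, whose values are coordinates in base pairs (start and end, unit other), with 1 of 4 location classes and gene names, per the file headers. The submitters' processing notes name mm10, Bowtie2 2.3.3 and SAMtools 0.1.19 without their roles. Caller, input subtraction, coordinate base and class distances were not given in the sources used here. Neither list holds a score or height, so depth is unknown and narrow regions cannot be told from weak ones.

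Width was end minus start. Overlap was counted from 1 bp. Names were matched to a RefSeq gene table of GRCm38.p6 by symbol or an unambiguous synonym, and a partner had to lie within 100 kb. Promoter windows came from RefSeq for the same build, with 250 bases before and 50 after the start. No test was run. Intervals are exact (Clopper-Pearson) at 95%. Values in each replicate were given for up to 25 genes named in both with the highest mean widest region, Hox cluster genes, 5 genes named in 1 replicate only, genes whose partner was named in neither, and Sox2ot; further genes, the printed sequences and the examples not named in the lists were chosen after their values were seen. The member genes and lists were chosen with earlier results of these data known. Scripts were tested on simulated lists. Alternatives were other thresholds on width, assignment by distance, other partner rules and leaving out each replicate. Python 3.11.15, numpy 2.4.6, pandas 2.3.3, scipy 1.17.1 and matplotlib 3.10.9 were used.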

Additional observations from a re-analysis of the deposited data

How the results depend on the processing

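Of 44 alternative values for 9 results, 40 kept within the limit of their result and 4 moved. The limit was 1.5 times for counts, 1 SD between replicates for the median width, the cover and the overlap between replicates, and the 95% interval for the share of the 239 antisense genes. With 2 replicates, leaving out 1 shifts a mean by less than 1 SD whatever the values. Those alternatives for the width, the cover and the overlap could thus not move. Nor could the counts of genes named in both move without the 2 protein-coding genes or with names matched by symbol only. The genes these concern, Brd3os, Ccpg1os and Nespas, were named in replicate 2 alone. The 40 therefore include values fixed in advance. The median width of regions naming an antisense gene was 24289 bp with promoter regions only and 9767 bp with each region counted once per gene it names, against 8525 bp as reported. The wide shared regions enter several times in the second count. Requiring 50% of both regions lowered the overlap between replicates to 64.0%, against 85.1% from 1 bp. Assignment of regions within 5000 bp of the span raised the share of the 239 antisense genes to 25.5%, against 18.8% by name. With 1 replicate left out, the number of genes named was 45 to 47, of genes with a promoter region 35 to 38, of partners named 38 to 44 and of pairs in a common region 29 to 33. The median width was then 8259 to 8791 bp, the overlap 84.3 to 86%, the share of antisense genes 20.1 to 20.9%, the cover 53.5 to 60.4% and the genes with a transcription factor partner 24 to 25. Leaving out a replicate drops the requirement that both name a gene. The counts without the 2 protein-coding genes (42 named in both, 32 by promoter), with homeobox, T-box, Gata, Sox and Fox partners only (24) and with 6 further partners counted as transcription factors (26) were chosen after seeing the data. No paired analysis was possible because the replicates form 1 group. Without read counts, regions missed for lack of depth cannot be counted.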
